A study of Mus musculus with 3 samples.

Results

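Brown and beige fat burn fuel to make heat, and work on those tissues has named a small set of microRNAs (miRNAs), short RNAs that silence messenger RNAs. Of these, 9 were described here in white fat: the clustered miR-193b-3p and miR-365-3p with their relative miR-193a-3p, both strands of miR-455, the Hox-locus miR-196a-5p and miR-196b-5p, miR-328-3p and miR-32-5p. They were chosen by name, as miRNAs tied to brown and beige fat, with no cutoff on their values, and all 9 have a row among the 1251 mature miRNAs of the deposited table. The tissue was the epididymal (visceral) fat of 3 C57BL/6J mice, numbered 1, 3 and 9, profiled by small RNA sequencing. From an age of 5 to 6 weeks the mice ate a high-fat diet for 11 weeks, with 45% of energy from fat, 20% from protein and 35% from carbohydrate. The diet held 6.75% eicosapentaenoic acid (EPA), a fish oil fatty acid, on a basis that is not stated. The mice were fasted for 4 h before the fat was taken. Every sample belongs to this 1 group, so no value measures an effect of EPA or of the depot. That these are separate animals rests on the sample titles and a stated 3 samples for each group, and p-values measure only the spread between the samples, which may be technical.

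miRNAs find their targets mainly through the seed, bases 2 to 8, and miRNAs with the same seed share many predicted targets. The miR-193b and miR-365 hairpins are made as a cluster that is enriched in brown fat and promotes brown adipocyte formation in culture, where miR-193b represses Runx1t1. Mice without the cluster can still form brown fat. miR-455 is induced by cold and by BMP7 and represses the adipogenic inhibitors Necdin and Runx1t1 and the HIF1α inhibitor Hif1an. miR-196a promotes beige cells in white fat by repressing Hoxc8, a Hox gene typical of white fat. miR-328 represses the protease Bace1, and miR-32, driven by a brown fat super-enhancer, represses Tob1. A hairpin gives a 5p and a 3p strand, of which 1 usually accumulates.

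The mature sequences show which members can act on the same targets. They are from RefSeq (GRCm38.p6), which held 8 of the 9, miR-328-3p being the one without an entry. Each is written 5′ to 3′ with the seed in capitals.
miR-193a-3p: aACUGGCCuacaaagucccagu
miR-193b-3p: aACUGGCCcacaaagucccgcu
miR-365-3p: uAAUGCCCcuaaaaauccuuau
miR-455-3p: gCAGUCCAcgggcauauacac
miR-455-5p: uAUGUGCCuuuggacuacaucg
miR-196a-5p: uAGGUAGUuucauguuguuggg
miR-196b-5p: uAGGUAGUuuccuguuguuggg
miR-32-5p: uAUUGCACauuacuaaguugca

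These 8 held 6 different seeds. miR-193a-3p and miR-193b-3p share ACUGGCC and differ at 3 of 22 positions (9, 20 and 21, counted from the 5′ end). miR-196a-5p and miR-196b-5p share AGGUAGU and differ at position 12 alone, so reads of these near-identical miRNAs could be split between them in a way that depends on the authors' counting. No other listed miRNA with a RefSeq sequence has the seed of miR-365-3p or of miR-455-3p. miR-32-5p shares AUUGCAC with 5 listed miRNAs, among them miR-25-3p and miR-92a-3p.
miR-25-3p: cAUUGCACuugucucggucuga
miR-92a-3p: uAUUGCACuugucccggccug

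The genes of these hairpins lie in clusters, in host genes and in the Hox loci (mouse assembly GRCm38, GENCODE annotation). Mir193b (chr16:13449523-13449601) and Mir365-1 (chr16:13453840-13453926) are 4238 bases apart on the plus strand, with the antisense transcript Gm15738 on the other strand. Their paralogs Mir193a (chr11:79711969-79712034) and Mir365-2 (chr11:79726400-79726511) are 14365 bases apart and overlap no other annotated gene. Mir455 (chr4:63256851-63256932) lies in an intron of the collagen gene Col27a1. Mir196a-1 (chr11:96265164-96265265) lies between genes, 6192 bases from Hoxb9, Mir196a-2 (chr15:102973350-102973434) in an intron of the gene annotated as Hoxc5, and Mir196b (chr6:52230081-52230165) on an exon of Hoxa9. Mir328 (chr8:105308364-105308460) lies opposite the strand of Elmo3, and Mir32 (chr4:56895229-56895298) in an intron of Tmem245. miR-365-3p comes with the same sequence from Mir365-1 and Mir365-2, as miR-196a-5p does from Mir196a-1 and Mir196a-2, so a row of these names sums both hairpins.

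The members covered a wide range of levels in this fat, with the miR-365 and miR-193 group at the top and miR-32-5p at the floor. Values are on the deposited scale, read here as log2 of a normalized read count plus 10, whose floor of 3.32 stands for a miRNA with no count above it. Seen, below, means a value above that floor. By this rule 7 of the 9 members were seen in all 3 mice, where 22.9% of all 1251 miRNAs were. Together the members held 0.290% ± 0.0288 of the summed normalized count (SD, n = 3), so none belongs to the dominant miRNAs of the tissue. Mature miRNAs have nearly the same length (21 or 22 bases for the 8 members with a sequence), so levels of different miRNAs can be set side by side, apart from unequal capture of different sequences.

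**Figure D1:**
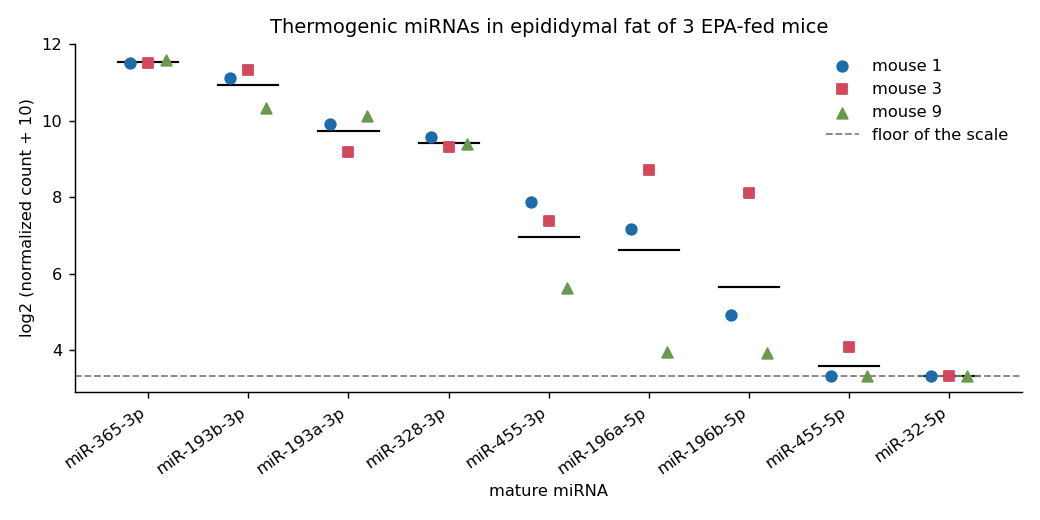
Level of each member in each mouse on the log2 (normalized count + 10) scale, with a bar at the mean of 3 mice and a dashed line at the floor. miR-365-3p has nearly the same value in the 3 mice, while miR-196a-5p spans 4.77 and miR-196b-5p 4.20 log2 units.

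miR-365-3p was the highest member and the steadiest of the 7 seen in all mice. It stood at 11.51 log2 units in mouse 1, 11.51 in mouse 3 and 11.60 in mouse 9, a mean of 11.54 ± 0.05 (SD, n = 3) and rank 60 of all 1251 miRNAs by mean. Its cluster partner miR-193b-3p stood at 11.12, 11.34 and 10.34 in mice 1, 3 and 9, a mean of 10.93 ± 0.52 and rank 72. The low value was that of mouse 9. The paralog miR-193a-3p had 9.93, 9.18 and 10.13 in the same order of mice, a mean of 9.75 ± 0.50 and rank 97, and here mouse 3 was the low one.

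The clustered miR-365-3p and miR-193b-3p kept the same order in every mouse but not the same distance. miR-365-3p was higher by 0.40 log2 units in mouse 1, 0.18 in mouse 3 and 1.26 in mouse 9, a mean difference of 0.61 ± 0.57 (SD, n = 3). miR-193b-3p exceeded miR-193a-3p by 1.19, 2.16 and 0.21, a mean of 1.19 ± 0.97. With 3 mice the exact sign-flip test of such a difference cannot go below 0.25, so the differences are given without a test. Without mouse 9 the first would be 0.29, and without mouse 3 the second would be 0.70.

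The seed shared by miR-193a-3p and miR-193b-3p was supplied by both miRNAs, in proportions that differed between the mice. Summed, they held 3179 normalized counts above the floor in mouse 1, 3145 in mouse 3 and 2398 in mouse 9. The miR-193a-3p part of this sum was 30.4% in mouse 1, 18.1% in mouse 3 and 46.3% in mouse 9, so miR-193b-3p held the larger part in 3 of 3 mice. In mouse 9, where miR-193b-3p was lowest, miR-193a-3p was at its highest.

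**Figure D2:**
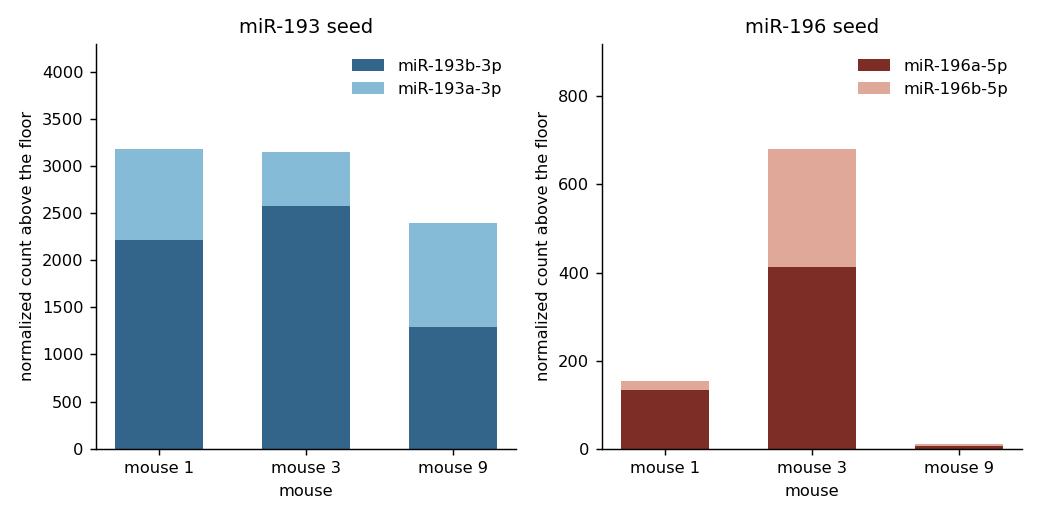
Normalized counts above the floor in each mouse, stacked for the miRNAs that share the miR-193 seed (left) and the miR-196 seed (right), on linear axes of different height. The miR-193 sum lies between 2398 and 3179 in the 3 mice, and the miR-196 sum between 10.7 and 681.

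miR-328-3p, the repressor of Bace1, was also steady. It had 9.57, 9.31 and 9.39 log2 units in mice 1, 3 and 9, a mean of 9.42 ± 0.13 (SD, n = 3) and rank 105. miR-193a-3p exceeded it in 2 of 3 mice, so the order of these neighbours lay within the spread between mice.

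The cold-responsive miR-455-3p was present at a low level that differed between mice. It had 7.86 log2 units in mouse 1, 7.37 in mouse 3 and 5.64 in mouse 9, a mean of 6.95 ± 1.17 (SD, n = 3) and rank 180. As normalized counts above the floor these are 223, 155 and 39.7. Mouse 9 was the low one, as for miR-193b-3p. The other strand, miR-455-5p, stood at the floor in mice 1 and 9 and at 4.08 in mouse 3, which is 6.88 normalized counts above the floor. Its seed AUGUGCC is also that of miR-5129-3p, which was at the floor in mice 1 and 3 and at 3.62 in mouse 9.

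miR-196a-5p and miR-196b-5p were the most variable members, low in mouse 9 and high in mouse 3. miR-196a-5p had 7.17 log2 units in mouse 1, 8.73 in mouse 3 and 3.96 in mouse 9, or 134, 413 and 5.56 normalized counts above the floor. Its mean was 6.62 ± 2.43 (SD, n = 3). miR-196b-5p had 4.91, 8.11 and 3.92 log2 units in the same order, or 20.2, 267 and 5.09 normalized counts above the floor, with a mean of 5.65 ± 2.19. Both had the same order of mice, with mouse 3 highest and mouse 9 lowest, near the floor. miR-196a-5p exceeded miR-196b-5p by 2.26, 0.61 and 0.04 log2 units in mice 1, 3 and 9, a mean of 0.97 ± 1.15. Without mouse 1 the mean difference would be 0.33. In bulk tissue, fewer cells that make a miRNA and less of it per cell cannot be told apart.

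Of the 8 neighbouring pairs in the order of the means, 5 kept their order in all 3 mice and 3 had ranges that did not overlap. The separated pairs were miR-365-3p above miR-193b-3p, miR-193b-3p above miR-193a-3p, and miR-328-3p above miR-455-3p. miR-455-3p exceeded miR-196a-5p in 2 of 3 mice. miR-196a-5p exceeded miR-196b-5p, and miR-196b-5p exceeded miR-455-5p, in 3 of 3 mice with overlapping ranges.

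The super-enhancer miRNA miR-32-5p stood at the floor in all 3 mice, which shows that it was not detectable in these libraries and not that it is absent. Its seed was nevertheless abundant through other miRNAs. miR-92a-3p, of the miR-17 to miR-92a cluster, had 14.05, 14.02 and 14.05 log2 units in mice 1, 3 and 9. miR-25-3p, of the miR-106b to miR-25 cluster, had 12.89, 12.59 and 12.74. miR-92b-3p was lower, at 7.09, 5.74 and 6.19, and miR-363-3p and miR-367-3p stood at the floor throughout. Summed, the 6 listed miRNAs with this seed held 24690, 22746 and 23839 normalized counts above the floor. miR-92a-3p made up 70.9% ± 2.05 of that sum and miR-25-3p 28.8% ± 1.88 (SD, n = 3).

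The miR-196 seed letters also occur, moved by 1 base, in the let-7 family, whose members restrain growth and are abundant in fat. The letters AGGUAGU occur in 13 of the 1679 mature miRNAs of the RefSeq table (0.774%, read on the miRNA strand only). They lie at bases 2 to 8 in miR-196a-5p and miR-196b-5p and at bases 3 to 9 in 9 miRNAs, of which 8 are let-7 or miR-98. In let-7a-5p, below, these letters are in capitals.
let-7a-5p: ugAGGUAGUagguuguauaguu
The 8 let-7 and miR-98 rows summed to 311786, 270852 and 309325 normalized counts above the floor in mice 1, 3 and 9. The miR-196 sum was 154, 681 and 10.7 in the same mice. The match of letters is a description of the sequences and not evidence of shared targets.

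The hairpins of miR-193a, miR-193b, miR-328 and miR-455 kept mainly their 3p strand. In limma's moderated one-sample test of the log2 ratio of 5p to 3p, two-sided, 129 hairpins were tested together. The test shares variance between hairpins, so each SE and p-value rests in part on the spread of the other hairpins. Of these, 59 had the 3p strand higher (45.7%) and 66 the 5p strand higher (51.2%) at a Benjamini-Hochberg adjusted p below 0.05. The test took hairpins whose 2 strands are listed under 1 hairpin name and whose larger strand averaged 100 normalized counts above the floor or more. The 4 member hairpins that met both conditions were among those with 3p higher. miR-365-3p and miR-196a-5p also passed that level, but each comes from several hairpins with other strands named apart, so they were not tested. So nearly every tested hairpin leaned to 1 strand, and leaning to 3p was common. The filter favours such calls, since it asks for 1 high strand. Without it 202 hairpins were tested, of which 79 had 5p and 78 had 3p higher.

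miR-193b and miR-328 had the most unequal strands of the 4, in an order that the scale sets. For miR-193b the log2 ratio of 5p to 3p was -6.99 in mouse 1, -7.19 in mouse 3 and -7.02 in mouse 9, a mean of -7.07 (SE 0.14, limma adjusted p = 3.79e-06), 5p being higher in 0 of 3 mice. For miR-328 the mean ratio was -6.10 (SE 0.14, limma adjusted p = 4.65e-06), with 5p higher in 0 of 3 mice. Because miR-328-5p stood at the floor in every mouse and miR-193b-5p in mouse 9, these ratios depend on the constant of the scale. For miR-328 the ratio is only the distance of miR-328-3p from the floor. The filter asks for such a distance, so the direction and p-value of miR-328 add nothing to it. With a constant of 1 in place of 10 the order turned, with -9.40 for miR-328 and -8.86 for miR-193b. The miR-193a hairpin leaned less, with -3.97, -5.35 and -4.19 in mice 1, 3 and 9 and a mean of -4.50 (SE 0.33, limma adjusted p = 1.55e-04), 5p being higher in 0 of 3. Its 5p strand was seen in all 3 mice, at 5.96, 3.83 and 5.94 log2 units. The hairpins are shown here with the 5p strand and then the 3p strand in capitals.
Mir193a: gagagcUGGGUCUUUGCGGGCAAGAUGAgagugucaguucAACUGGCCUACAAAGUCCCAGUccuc
Mir193b: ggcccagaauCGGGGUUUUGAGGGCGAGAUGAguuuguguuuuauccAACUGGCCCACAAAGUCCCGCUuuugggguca

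For miR-455 the ratio was -4.54, -3.29 and -2.31 in mice 1, 3 and 9, a mean of -3.38 (SE 0.47, limma adjusted p = 1.81e-03), with 5p higher in 0 of 3 mice. With miR-455-5p at the floor in mice 1 and 9, the ratio there follows the level of miR-455-3p. Without mouse 3 the limma adjusted p was 0.0555, and without mouse 1 the hairpin did not reach the filter. The miR-196 hairpins leaned the other way, without a test: miR-196a-5p and miR-196b-5p (the latter below the filter) were above the floor in 3 of 3 mice, while miR-196a-1-3p, miR-196a-2-3p and miR-196b-3p stood at the floor in every mouse. Both strands of miR-32 stood there too.

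**Figure D3:**
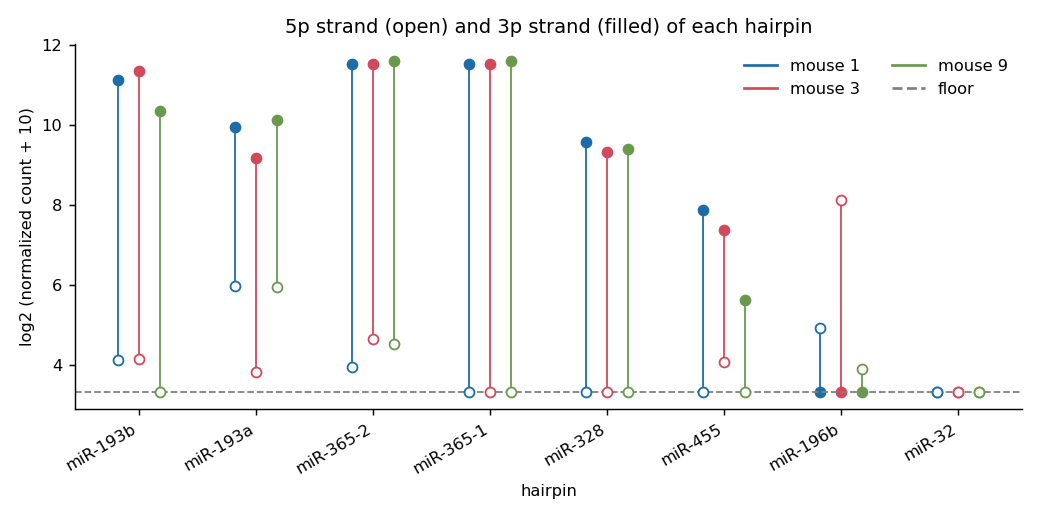
Level of the 5p strand (open circles) and the 3p strand (filled circles) of each hairpin in each mouse on the log2 (normalized count + 10) scale, with a dashed line at the floor. Both miR-365 columns use the same miR-365-3p values, since that strand is identical in the 2 hairpins. The 5p strand of miR-365-1 lies on the floor and that of miR-365-2 above it.

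The 5p strands separate the 2 hairpins that make miR-365-3p. They differ at 3 of 23 positions (10, 11 and 19 from the 5′ end), in capitals here.
miR-365-1-5p: agggacuuuUGggggcagAugug
miR-365-2-5p: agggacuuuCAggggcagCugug
miR-365-1-5p, from the hairpin beside Mir193b, stood at the floor in all 3 mice. miR-365-2-5p, from the hairpin beside Mir193a, was seen in all 3, at 3.95, 4.66 and 4.52 log2 units in mice 1, 3 and 9, or 5.51, 15.3 and 13.0 normalized counts above the floor. Its difference from miR-365-3p averaged -7.16 ± 0.36 log2 units (SD, n = 3). These low values describe the discarded strands and do not apportion miR-365-3p between its hairpins.

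Among the 194 miRNAs that passed a filter on their mean (100 or more normalized counts above the floor), to which 6 members belong, the spread between mice was usually small. The median SD was 0.22 log2 units. miR-196a-5p had the 4th largest SD of the 194 and miR-455-3p the 10th, and these members were among the 11 miRNAs with an SD over 1. miR-193b-3p (0.52) ranked 26 and miR-193a-3p (0.50) ranked 30, while miR-328-3p (0.13) ranked 152 and miR-365-3p (0.05) ranked 188. In a check added after the data were seen, leaving out 1 mouse at a time gave an SD between 1.10 (without mouse 9) and 3.37 (without mouse 1) for miR-196a-5p. The range was 0.71 (without mouse 3) to 2.97 (without mouse 1) for miR-196b-5p and 0.35 (without mouse 9) to 1.58 (without mouse 3) for miR-455-3p. For miR-193b-3p it was 0.15 (without mouse 9) to 0.70 (without mouse 1), and for miR-193a-3p 0.14 (without mouse 3) to 0.67 (without mouse 1). With 3 values, leaving out the one farthest from the others lowers the SD by construction. Near the filter a miRNA can pass without being high in every mouse: miR-196a-5p exceeded 100 in mice 1 and 3 only, and miR-455-3p likewise. miR-196b-5p, with a mean of 97.5, did not pass.

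**Figure D4:**
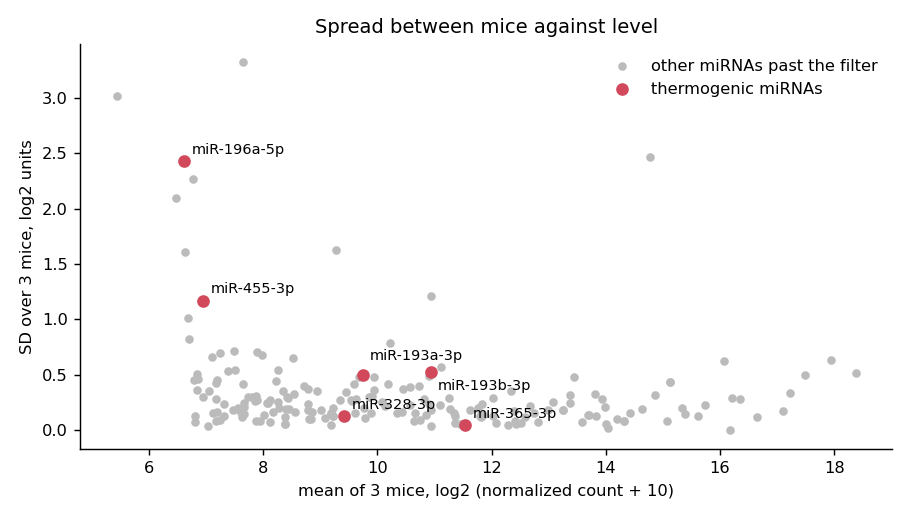
SD over 3 mice against mean level for the 194 miRNAs past the filter, with the 6 thermogenic miRNAs among them in red. miR-196a-5p and miR-455-3p lie above most miRNAs, and miR-365-3p near the bottom.

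The 3 patterns nearest to that of miR-196a-5p belonged to miRNAs of the miR-200 family and to miR-182-5p. Likeness was the root-mean-square difference between deviations from the own mean over the 3 mice, within the 193 other miRNAs past the filter. The nearest was miR-429-3p of the miR-200 family (0.28 log2 units), followed by miR-200b-3p of the same hairpin cluster (0.91) and miR-182-5p (0.9997). For miR-196b-5p they were the epithelial miR-205-5p (0.47), miR-31-5p (0.55) and miR-429-3p (0.84). For miR-455-3p they were miR-182-5p (0.47), miR-872-5p (0.49) and miR-1981-3p (0.59). Deviations were not scaled, so a member with a large SD lies nearest to others that vary widely. Only 11 of the 194 miRNAs past the filter, members included, had an SD over 1, which narrows the choice. The likeness rests on 3 mice and is a description.

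The list of 8 epithelial miRNAs was, like miR-196a-5p and miR-196b-5p, low in mouse 9. Its median was 7.66 log2 units in mouse 1, 6.90 in mouse 3 and 4.15 in mouse 9, and its summed level was 2132, 3771 and 917 normalized counts above the floor. Of the 8, which were listed with earlier results of these data known, 7 were lowest in mouse 9. There miR-200a-3p, miR-200c-3p and miR-141-3p stood at the floor, while miR-203-3p was only slightly lower (9.42, 9.85 and 9.35 log2 units in mice 1, 3 and 9). Of all 363 miRNAs seen in at least 1 mouse, 85 were lowest in mouse 9. miR-429-3p had 6.93, 8.29 and 4.19 log2 units in mice 1, 3 and 9, miR-200b-3p 8.40, 7.73 and 4.19, and miR-205-5p 8.70, 11.12 and 8.04. The exception was miR-375-3p, with 8.90 in mouse 1, the floor in mouse 3 and 4.12 in mouse 9. The part of epithelial cells in the miR-196 values was not tested.

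The 3 other Hox-cluster miRNAs listed for comparison did not share the low value of mouse 9. miR-10a-5p, from the same Hoxb cluster as Mir196a-1, had 17.58, 16.90 and 17.20 log2 units in mice 1, 3 and 9. miR-10b-5p, from the Hoxd cluster, which holds none of the miR-196 hairpins, had 16.90, 17.77 and 17.77. miR-615-3p, from the Hoxc cluster that also holds Mir196a-2, had 8.98, 8.84 and 9.21. None of the 3 was lowest in mouse 9, and the widest range among them was 0.87 log2 units, against 4.77 for miR-196a-5p. These ranges were taken at unlike levels. In mice 1, 3 and 9 miR-10a-5p held ranks 3, 5 and 4, miR-10b-5p 5, 2 and 2, and miR-615-3p 116, 120 and 110. miR-196a-5p held ranks 176, 123 and 283.

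**Figure D5:**
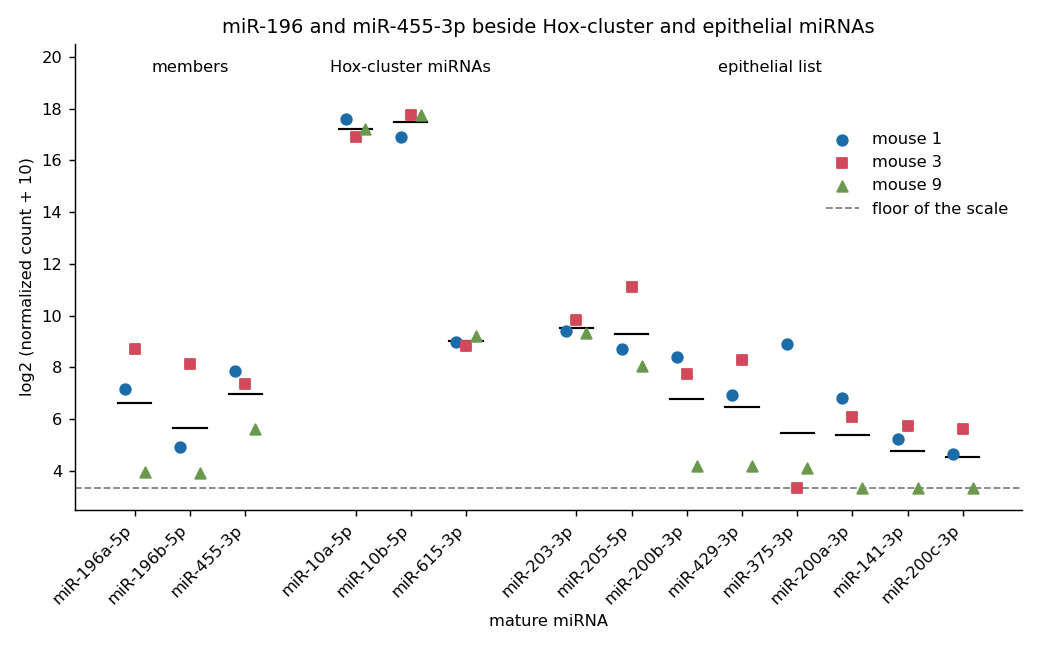
Level in each mouse on the log2 (normalized count + 10) scale for miR-196a-5p, miR-196b-5p and miR-455-3p (left), 3 Hox-cluster miRNAs (middle) and the 8 epithelial miRNAs (right), with bars at the means and a dashed line at the floor. Mouse 9 is lowest for the 3 members and for 7 of the 8 epithelial miRNAs, and for none of the Hox-cluster miRNAs.

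Other miRNAs tied to brown and beige fat had higher list medians than the members, though not each of them stood higher, and the medians were not tested. A list of 8 others that promote these cells was seen whole in all mice, with a median of 12.39, 12.59 and 12.28 log2 units in mice 1, 3 and 9. The median of the 9 members was 7.86, 8.73 and 5.64, and that of the 363 miRNAs seen in at least 1 mouse 7.04, 7.04 and 7.02. Of the 8 promoting miRNAs 7 were lowest in mouse 9, the exception being miR-26a-5p, with equal values in mice 3 and 9. So were 4 of the 9 members (miR-193b-3p, miR-455-3p, miR-196a-5p and miR-196b-5p), against 85 of those 363 miRNAs. The 9 include miR-32-5p, which was never above the floor and is not among the 363. miR-182-5p had 11.29, 11.94 and 9.59, miR-129-5p 5.96, 5.69 and 3.96, and miR-378a-3p, from an intron of Ppargc1b, 16.02, 16.72 and 15.47. miR-203-3p is in this list and in the epithelial one, and miR-378a-3p is also in the adipocyte-rich list below.

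Of 10 miRNAs that restrain brown or beige cells, 9 were seen in all mice and miR-155-5p stood at the floor. The median was 12.03, 12.26 and 12.25 log2 units in mice 1, 3 and 9. In mouse 9, 2 of the 10 were lowest, near the share of all miRNAs seen in at least 1 mouse (85 of 363, which leave out miR-155-5p). miR-133a-3p, which represses the brown fat regulator Prdm16, had 11.94, 16.38 and 16.02, so its low mouse was 1 and not 9. miR-27b-3p, also a repressor of Prdm16, had 15.02, 15.16 and 15.02. Both stood above every member in each mouse. miR-133a-3p and miR-133b-3p are also in the striated muscle list below, and miR-155-5p in the leukocyte list, so these lists share rows.

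The tissue label was checked against marker miRNAs. All 5 of the adipocyte-rich list were seen in all mice (summed levels of 187160 to 272514 normalized counts above the floor), as were all 4 stromal (28771 to 33181) and both endothelial ones (14862 to 21262). Of 6 leukocyte miRNAs 4 were seen in all mice (9092 to 9746), and of 3 erythroid ones 2 (33085 to 57366). The striated muscle list was seen in all mice for 2 of 7, miR-133a-3p and miR-133b-3p. Its sums were 3912 in mouse 1, 85898 in mouse 3 and 67096 in mouse 9, nearly all miR-133a-3p. miR-133b-3p had 3.83, 9.49 and 9.65 log2 units in mice 1, 3 and 9. miR-1a-3p had only 3.32 (the floor), 5.53 and 3.44. miR-206-3p and miR-208b-3p were each seen in 1 mouse, and miR-208a-3p and miR-499-5p stood at the floor. Of 11 testis and epididymis miRNAs 9 stood at the floor (184 to 225), miR-34c-5p and miR-34b-3p being the others.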

How the data were processed

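Total RNA of frozen fat was made into Illumina small RNA libraries, per the labels' protocols. The deposited values are log2 normalized counts, 1 column per mouse. Per the series' design text, the authors used the Gunaratne pipeline with mm10 (some 13.8 M mapped reads a sample), scaled counts to the total of usable reads and then added 40. The build is the same per the submitters' processing notes. No aligner is named in the sources used here, nor a miRNA annotation. The lowest deposited log2 value equals a count of 10, and 260 values lie between 10 and 40, so 40 is not the constant in the values. An added constant of 10 was assumed here. A lower limit of 10 without an added constant would give the same floor, and the values cannot tell these apart. When sorted, the columns are nearly equal: 121 of 336 ranks above the floor agree within 1e-06 and the widest gap at a rank is 0.34. A difference between mice is therefore in essence one of ranks, and equal values such as those of miR-365-3p follow in part from this. The depth behind each value is unknown, and counting intervals are left out.

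Linear values are the power of 2 minus 10, and so rest on reading 10 as an added constant. Strand ratios were tested with limma 3.58.1 (R 4.3.3) over hairpins whose 2 strands are listed (425) and whose larger strand averaged at least 100. On simulated data, 64 of 64 hairpins with a ratio of 2 log2 units were recovered among 129, with 2 false calls. All were given 1 noise SD, 0.34 log2 units, from the median variance of the tested hairpins, and no floor. The ratio of miR-455 varied more (SD 1.12), so the simulation does not cover hairpins of that spread. Members, marker lists and rules were chosen with earlier results of these data known. Named are the members, their other strands, miRNAs with a member's seed, the fixed lists and, for members with an SD over 1, the 3 miRNAs nearest in pattern. Marker names were matched directly or by older forms (miR-126-3p, miR-142-3p). Sequences were found for 1001 of 1251 rows by name, so seed mates without an entry are not counted. Alternatives were constants of 1 and 40, median-ratio scaling, other filters and detection limits, the limma prior with trend, and leaving out each mouse. Python 3.11.15, numpy 2.4.6, pandas 2.3.3 and matplotlib 3.10.9 were used.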

Additional observations from a re-analysis of the deposited data

How the results depend on the processing

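No paired analysis was possible because pairing of replicates needs at least 2 groups and the samples form 1. Strand ratios and differences between members were taken within each mouse. The differences of miR-365-3p from miR-193b-3p, of miR-193b-3p from miR-193a-3p and of miR-196a-5p from miR-196b-5p stayed within 1 SD under both constants and median-ratio scaling. Their sign could not turn under any of these settings or by leaving out a mouse, since each was positive in all 3 mice. Leaving out 1 of 3 mice cannot move a mean by 1 SD, so that setting tests neither. miR-455-3p minus miR-455-5p was 5.82 log2 units with a constant of 1 and 1.92 with 40, against 3.38, because miR-455-5p lies at or near the floor. With at least 100 normalized counts above the floor required, 4 members instead of 7 were seen in all mice, and with at least 10, 5. With a filter of 1000 the hairpins tested numbered 67, with 39 leaning to 5p and 28 to 3p, fewer because fewer were tested. Of 28 alternative strand ratios of members 27 kept their call, the exception being miR-455 without mouse 3 (limma adjusted p 0.0555). The 28 leave out cases in which a hairpin fell below the filter and was not tested. These were miR-455 without mouse 1, and miR-193a, miR-328 and miR-455 with the filter of 1000. Mean levels moved by over 1 SD in 4 of 54 cases, all of them miR-455-5p or miR-32-5p under another constant. The 54 include the cases that leave out a mouse, which cannot move a mean that far. The ranks of SD depend on how many miRNAs are ranked: without a filter miR-455-3p ranked 22 and miR-193b-3p 81 of 363.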
